A study of Mus musculus with 24 samples.

Results

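Transcripts of 8 growth factors that act on blood vessels, epithelium and stroma were followed in macrophages sorted from tumors with and without Apc. The factors are Vegfa, Hbegf, Areg, Ereg, Igf1, Pdgfa, Pdgfb and Hgf, chosen by gene symbol through their Ensembl IDs, and all 8 were found among the 55487 gene IDs of the count table. Vegfa was the most abundant of them in every tumor and was lower in macrophages of APC-KO tumors. Areg, the other factor that passed the limit for expressed genes, was not called in the test that takes account of transcript length. The remaining 6 were below that limit, and Hbegf and Pdgfa among them were higher and Hgf lower in APC-KO under a looser one, although Hbegf and Pdgfa changed sign with TMM scaling over all genes and Hgf met that limit only through APC-WT, where it is high.

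The macrophages carried CD45, CD11b and F4/80 on their surface and were sorted for these from tumors that MC38, a colon carcinoma line of the mouse, had formed orthotopically in C57BL/6J mice. The APC-KO group consists of 2 tumors (tumor 1 and tumor 2) grown from MC38 cells without Apc, and the APC-WT group of 2 tumors grown from MC38 cells with Apc. Apc is the tumor suppressor that restrains Wnt signalling, and the genotype is that of the tumor cells, not of the macrophages. Each tumor gave 6 libraries made with an ultra low input protocol, so 24 libraries were measured. Where a genotype has 2 values, that of its tumor 1 precedes that of its tumor 2. The labels give neither the age or sex of the mice nor the number of animals or MC38 clones behind a tumor. The 6 libraries are labelled as replicates of 1 sample, so the tumor was the unit for the genotype, and p-values between single tumors measure only the spread between libraries, which may be technical.

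Vegfa, vascular endothelial growth factor A, drives endothelial growth and sprouting through Kdr, with Flt1 and Nrp1 as further receptors, and its gene is a classical target of hypoxia-inducible factors. Hbegf, Areg and Ereg are made as membrane-anchored precursors of the epidermal growth factor family, are released by the sheddase Adam17 and signal through Egfr, and Hbegf and Ereg also bind Erbb4. Igf1 acts through Igf1r and is a product of several tissue macrophage types. Pdgfa and Pdgfb are the chains of platelet-derived growth factor dimers that stimulate fibroblasts and pericytes through Pdgfra and Pdgfrb. Hgf, hepatocyte growth factor, is secreted as an inactive precursor by stromal and some myeloid cells and acts on epithelium through Met.

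The libraries differed between genotypes before any growth factor is considered. The libraries of APC-KO tumor 1 held 8895722 to 19328572 counts and those of APC-KO tumor 2 held 13464061 to 17196820, against 74972634 to 93568353 for APC-WT tumor 1 and 28018638 to 46837543 for APC-WT tumor 2. A set of 7 loci resembling the satellite repeat gene Gm10800 took 32.04% and 32.6% of the counts in the APC-KO tumors, against 1.11% and 5.97% in the APC-WT tumors. Levels are therefore given as scaled CPM, counts per 1e6 of the TMM-scaled total of 3953 expressed genes. A background was estimated per kb of exon from 1974 olfactory and vomeronasal receptor genes, which macrophages should not use. It came to 2.56 and 2.63 scaled CPM per kb in the APC-KO tumors, against 0.0501 and 0.364 in the APC-WT tumors. A gene counted as expressed with a mean of at least 10 CPM over the 4 tumors and at least 10 times its expected background. All 12 macrophage markers, Adgre1 and Csf1r among them, stood above the 95th percentile of the receptor genes in each tumor, and their summed level averaged 22224 and 23285 scaled CPM in the APC-KO tumors and 26945 and 23478 in the APC-WT tumors. The highest of them in both APC-KO tumors was Lyz2 and the lowest was Mertk. The genes of the surface proteins used in the sort were lower in APC-KO. Adgre1 (F4/80) read 176 and 185 scaled CPM in the APC-KO tumors and 836 and 761 in the APC-WT tumors, Itgam (CD11b) 179.9 and 181 against 1054 and 1176, and Ptprc (CD45) 252 and 264 against 749 and 764.

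Vegfa (ENSMUSG00000023951, chr17:46016993-46032369, minus strand, GRCm38) was measured at 246.8, 351, 458, 534, 533 and 523 scaled CPM in libraries 1 to 6 of APC-KO tumor 1. APC-KO tumor 2 had 439, 372, 366, 397, 394 and 353 scaled CPM. The APC-WT libraries read 1809, 1779, 1649, 1768, 1707 and 1666 in tumor 1 and 1871, 1859, 1842, 1735, 1673 and 1739 in tumor 2. The 12 APC-KO libraries thus lay far below the 12 APC-WT libraries, with no overlap, and library 1 of APC-KO tumor 1 was the lowest of all. Tumor means were 441 ± 118 and 387 ± 30.6 scaled CPM in the APC-KO tumors, and 1729 ± 65.3 and 1787 ± 81.7 in the APC-WT tumors (SD, n = 6 libraries each). Expected background for Vegfa was 10.95 and 11.3 scaled CPM in the APC-KO tumors and 0.215 and 1.56 in the APC-WT tumors, so Vegfa exceeded it 40.3 and 34.4 times in APC-KO. The summed counts behind these values were 18745 and 18648 in the APC-KO tumors.

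Upstream sequence of 5 of the 8 members was at hand in the RefSeq promoter table for GRCm38.p6 (Vegfa, Areg, Igf1, Pdgfa and Hgf). Shown first are the 250 bases before the start of Vegfa and Areg, the members that passed the limit for expressed genes. Capitals mark matches to the motifs searched, which were the hypoxia response core ACGTG, the related core GCGTG shared with aryl hydrocarbon receptor elements, the cyclic AMP response element TGACGTCA, the AP-1 site TGANTCA, the GC box GGGCGG and the TATA box TATAAA, on both strands.
Vegfa, chr17:46032378-46032627, minus strand: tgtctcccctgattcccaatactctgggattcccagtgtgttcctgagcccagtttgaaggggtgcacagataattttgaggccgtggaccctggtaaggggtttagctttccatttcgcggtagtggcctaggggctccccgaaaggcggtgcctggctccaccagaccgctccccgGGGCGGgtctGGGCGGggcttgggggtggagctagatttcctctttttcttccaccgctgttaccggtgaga
Areg, chr5:91139349-91139598, plus strand: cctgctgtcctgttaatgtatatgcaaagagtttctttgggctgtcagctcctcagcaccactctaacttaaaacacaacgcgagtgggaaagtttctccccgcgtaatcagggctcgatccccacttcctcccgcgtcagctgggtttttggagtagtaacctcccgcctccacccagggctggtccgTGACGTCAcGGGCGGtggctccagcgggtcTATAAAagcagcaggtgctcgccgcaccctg
Where a gene had several starts in the table, as Vegfa and Hgf with 2 each, the one furthest upstream was used. Positions are counted back from -1, the base before the start, to the first base of a motif. Vegfa held 2 GC boxes, at -72 and -62. Areg held a cyclic AMP response element at -61, a GC box at -52 and a TATA box at -31. Among all 32851 promoters listed, 1.55% held TGACGTCA, 32.7% GGGCGG, 12.4% TATAAA, 16.6% ACGTG, 28.2% GCGTG and 6.75% TGANTCA in the same window. These matches describe letters and not bound sites, and no motifs of the search overlapped each other in these windows.

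Among the Egfr ligands, Hbegf (ENSMUSG00000024486, chr18:36504927-36515805, minus strand), heparin-binding EGF-like growth factor, read 82.3, 66.7, 66.1, 65.4, 63.6 and 61.2 scaled CPM in APC-KO tumor 1 and 71.6, 64.6, 78.1, 74.6, 75.0 and 66.9 in APC-KO tumor 2. It read 10.2, 12.1, 12.6, 11.8, 14.3 and 13.5 scaled CPM in APC-WT tumor 1 and 24.7, 25.7, 28.2, 24.9, 28.7 and 27.0 in APC-WT tumor 2. Every APC-KO library was above every APC-WT library, and the APC-WT tumors were also apart from each other. Expected background was 12.4 and 12.7 scaled CPM in the APC-KO tumors and 0.242 and 1.76 in the APC-WT tumors. The level above this background averaged 55.2 and 59.1 scaled CPM in the APC-KO tumors and 12.2 and 24.8 in the APC-WT tumors.

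Areg (ENSMUSG00000029378, chr5:91139599-91148432, plus strand), amphiregulin, had 23.9, 26.7, 28.2, 32.01, 26.1 and 29.1 scaled CPM in APC-KO tumor 1 and 22.5, 25.3, 31.8, 22.7, 23.5 and 26.3 in APC-KO tumor 2. The APC-WT libraries had 10.5, 9.73, 9.61, 9.52, 10.7 and 10.4 scaled CPM in tumor 1 and 15.4, 16.9, 16.4, 16.4, 15.03 and 16.2 in tumor 2. The APC-KO libraries were again above the APC-WT libraries without overlap on this scale, which carries no length offset, and Areg has the shortest longest transcript of the 8 members, at 1215 bases. Its expected background was the smallest of the 8, at 3.11 and 3.19 scaled CPM in the APC-KO tumors and 0.0609 and 0.442 in the APC-WT tumors. The counts behind Areg were few in APC-KO, between 129 and 272 per library.

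Ereg (ENSMUSG00000029377, chr5:91074622-91093646, plus strand), epiregulin, averaged 15.1 ± 4.10 and 14.8 ± 4.07 scaled CPM in the APC-KO tumors and 2.12 ± 0.298 and 4.56 ± 1.00 in the APC-WT tumors (SD, n = 6 libraries each). Its APC-KO libraries ranged from 7.83 to 19.1 with a median of 15.5 in tumor 1 and from 10.3 to 20.9 with a median of 14.6 in tumor 2. The expected background alone was 10.6 and 10.9 scaled CPM there, and the 95th percentile of the receptor genes, at 2.32 times the background in both APC-KO tumors, lay above the Ereg level in each. Ereg in APC-KO was therefore not detectable above the range of genes taken as silent, while in APC-WT tumor 1 it stood at 10.2 times and in APC-WT tumor 2 at 3.03 times its background. The antisense gene Gm19610 overlaps Ereg, and whether the counting used strand is not given in the sources used here.

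Igf1 (ENSMUSG00000020053, chr10:87858265-87937042, plus strand) behaved likewise. It averaged 53.6 ± 4.75 and 49.2 ± 14.6 scaled CPM in the APC-KO tumors and 2.35 ± 0.169 and 5.72 ± 1.74 in the APC-WT tumors (SD, n = 6 libraries each). Its exons are the longest of the members at 9904 bases, and the background expected for them was 25.3 and 26.0 scaled CPM in the APC-KO tumors. Igf1 stood at 2.12 and 1.89 times background in the APC-KO tumors and 1.59 times in APC-WT tumor 2, all below the 95th percentile of the receptor genes (1.85 times in APC-WT tumor 2). Only in APC-WT tumor 1 was it above that range (2.59 times), at 4.73 times its background. Library 1 of APC-KO tumor 2 was low at 23.3 scaled CPM, its remaining libraries having 42.6 to 64.5. The antisense gene Igf1os overlaps Igf1.

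Pdgfa (ENSMUSG00000025856, chr5:138976014-138997370, minus strand) had 30.8, 36.1, 38.2, 36.4, 33.8 and 35.9 scaled CPM in APC-KO tumor 1 and 32.1, 30.5, 42.1, 34.3, 35.1 and 38.8 in APC-KO tumor 2. It had 10.01, 9.61, 10.2, 8.19, 9.59 and 9.51 scaled CPM in APC-WT tumor 1 and 14.5, 15.9, 14.9, 14.8, 11.9 and 16.05 in APC-WT tumor 2. The genotypes did not overlap, and the APC-KO tumors had like levels. Expected background was 7.97 and 8.20 scaled CPM in the APC-KO tumors and 0.156 and 1.14 in the APC-WT tumors. The antisense gene 6330403L08Rik overlaps Pdgfa.

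Pdgfb (ENSMUSG00000000489, chr15:79995874-80014977, minus strand) was the member whose genotypes overlapped. It read 30.4, 33.6, 44.8, 38.5, 48.5 and 37.7 scaled CPM in APC-KO tumor 1 and 45.1, 44.2, 31.4, 43.0, 42.9 and 46.7 in APC-KO tumor 2. It read 42.9, 27.2, 13.9, 28.9, 14.6 and 12.4 scaled CPM in APC-WT tumor 1 and 35.0, 42.3, 44.9, 18.2, 16.3 and 19.7 in APC-WT tumor 2. Libraries 1, 2 and 4 of APC-WT tumor 1 and libraries 1, 2 and 3 of APC-WT tumor 2 were high, and the other libraries of these tumors were low. The spread exceeded counting error, with counts from 1127 to 4176 in APC-WT tumor 1 and a chi-square per degree of freedom of 587 and 205 in the APC-WT tumors. The coefficient of variation was 51.2% in APC-WT tumor 1 and 43.7% in APC-WT tumor 2, where the median expressed gene had 3.44% and 4.52% and only 2.33% and 2.73% of expressed genes varied more. In APC-KO it was 17.4% and 13.02% in tumors 1 and 2, beside 11.7% and 9.13% for the median expressed gene. The genes Mir7213, on the same strand, and Gm41361, in antisense, overlap Pdgfb.

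**Figure D1:**
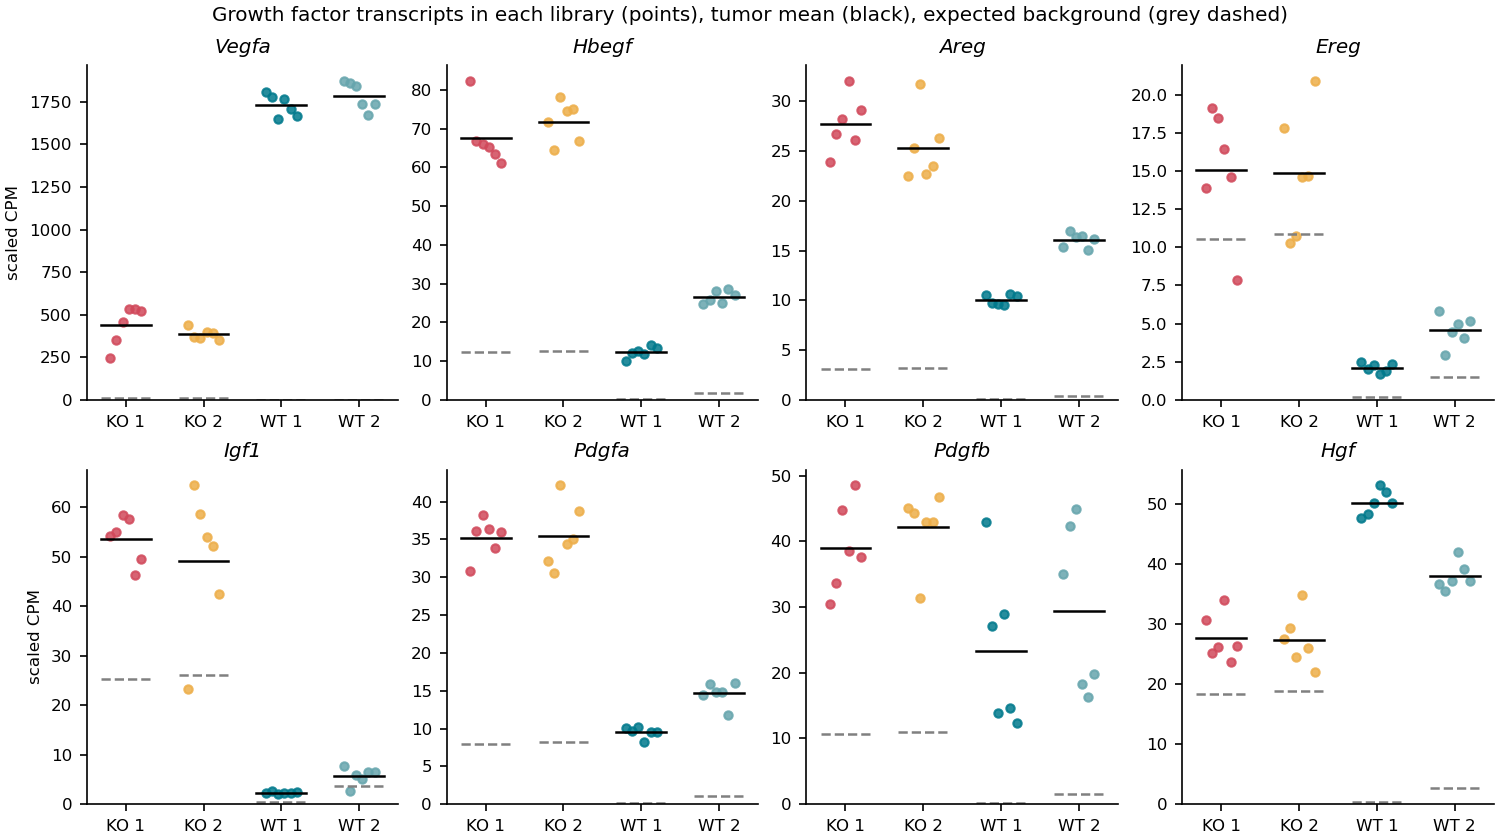
Scaled CPM of each growth factor (y axis, linear, 1 panel per gene) in the 6 libraries of APC-KO tumor 1, APC-KO tumor 2, APC-WT tumor 1 and APC-WT tumor 2 (x axis), with points for libraries, black lines for tumor means and grey dashed lines for the expected background. Vegfa and Hgf sit lower in APC-KO, Pdgfb overlaps between genotypes, and Ereg, Igf1 and Hgf in APC-KO lie near their background lines; with TMM over all genes, Hbegf, Areg, Ereg, Pdgfa and Pdgfb change sign.

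Hgf (ENSMUSG00000028864, chr5:16553495-16620152, plus strand) was the other member lower in APC-KO on this scale. Its libraries read 30.8, 25.2, 26.1, 34.0, 23.7 and 26.4 scaled CPM in APC-KO tumor 1 and 27.5, 29.3, 24.5, 34.8, 26.0 and 22.0 in APC-KO tumor 2. They read 47.7, 48.3, 50.2, 53.1, 52.0 and 50.1 scaled CPM in APC-WT tumor 1 and 36.7, 35.5, 37.2, 42.0, 39.1 and 37.1 in APC-WT tumor 2. The ranges touched closely without overlap, with 34.8 as the highest APC-KO library and 35.5 as the lowest APC-WT library. Of the APC-KO level, 18.4 and 18.9 scaled CPM were expected as background in tumors 1 and 2. Hgf thus lay at 1.51 and 1.45 times background in the APC-KO tumors, within the range of the receptor genes, and at 139 and 14.5 times background in the APC-WT tumors. The genes Gm43489 and Gm42975 lie within Hgf on the same strand. The 250 bases before its upstream start are shown because Hgf, like Ereg, was above the range of the receptor genes in both APC-WT tumors and in neither APC-KO tumor.
Hgf, chr5:16553245-16553494, plus strand: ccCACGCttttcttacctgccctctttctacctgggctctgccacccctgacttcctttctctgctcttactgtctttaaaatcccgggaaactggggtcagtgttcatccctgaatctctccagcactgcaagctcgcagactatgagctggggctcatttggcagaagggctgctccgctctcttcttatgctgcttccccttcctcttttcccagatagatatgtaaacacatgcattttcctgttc
The capitals mark GCGTG read on the opposite strand, at -248, and none of the other motifs searched had a match in this window. GCGTG was not particular to Hgf among the members. Igf1 held it at -196, with an AP-1 site at -37. Pdgfa held it on the opposite strand at -231, with GC boxes on that strand at -93 and -86.

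**Figure D2:**
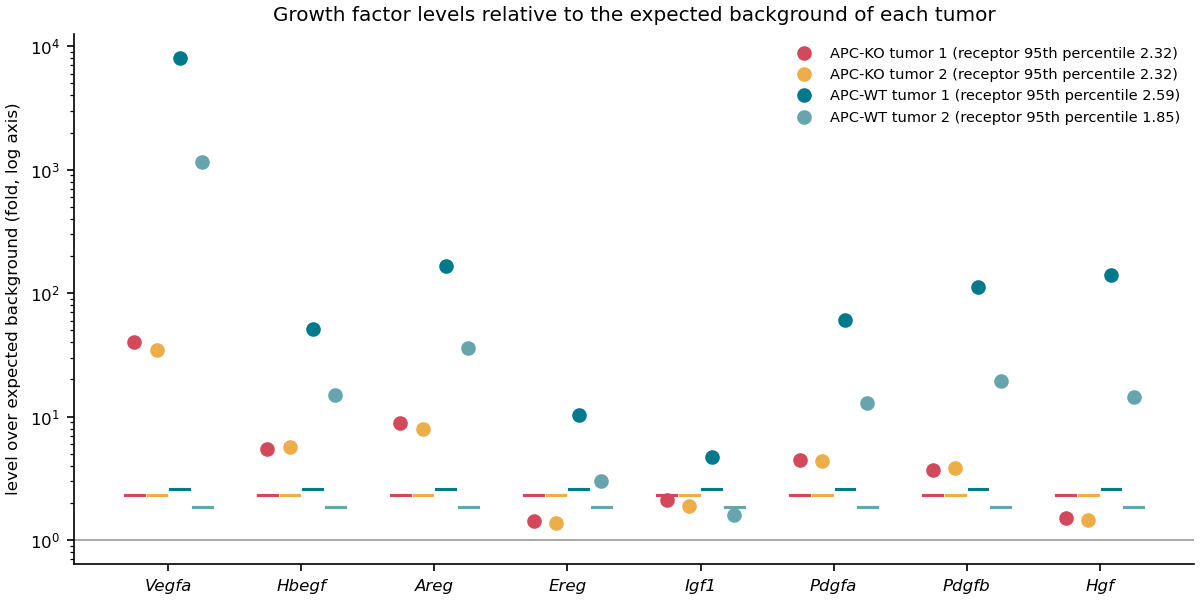
Level over expected background (y axis, fold, log axis) of each growth factor (x axis) in the 4 tumors. Points are means of the libraries of a tumor over its expected background. Short bars are the 95th percentile of the receptor genes of the same tumor (2.32 in both APC-KO tumors, 2.59 and 1.85 in the APC-WT tumors). Ereg, Igf1 and Hgf in both APC-KO tumors, and Igf1 in APC-WT tumor 2, lie under their bars.

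Per kb of exon, a scale for comparing different genes, Vegfa led. It read 103 and 90.3 scaled CPM per kb in the APC-KO tumors and 404 and 417 in the APC-WT tumors. On this scale Areg came next in every tumor. It read 22.8 and 20.8 scaled CPM per kb in the APC-KO tumors and 8.29 and 13.2 in the APC-WT tumors. In APC-KO tumor 1 there followed Hbegf at 14.0, Pdgfa at 11.3, Pdgfb at 9.35, Igf1 at 5.41, Hgf at 3.85 and Ereg at 3.65 scaled CPM per kb. Pdgfa and Pdgfb, and Hgf and Ereg, did not differ there beyond their library SDs. The same order held in APC-KO tumor 2, where neighbours within their SDs were Pdgfa and Pdgfb, Igf1 and Hgf, and Hgf and Ereg. In APC-WT tumor 1 Hgf followed Areg at 6.99 scaled CPM per kb, ahead of Pdgfb at 5.604, Pdgfa at 3.05, Hbegf at 2.57, Ereg at 0.512 and Igf1 at 0.237. Hgf and Pdgfb, Pdgfb and Pdgfa, and Pdgfa and Hbegf did not differ there beyond their SDs. In APC-WT tumor 2 Pdgfb at 7.07, Hbegf at 5.49, Hgf at 5.28 and Pdgfa at 4.70 scaled CPM per kb followed Areg, each within the SD of its neighbour, and Ereg at 1.10 and Igf1 at 0.577 came last. The expected background on this scale was 2.56 and 2.63 in the APC-KO tumors, so the lower places there hold genes near it.

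The genotype comparison asked whether the Apc status of a tumor goes with a difference in its macrophages, with 2 tumors of each kind. On tumor sums, edgeR's quasi-likelihood test with an offset for transcript length put Vegfa at a log2 change of -1.53 (SE 0.18, adjusted p = 0.00459), that is 2.88-fold lower in APC-KO. Both APC-KO tumors were below both APC-WT tumors. Areg had a log2 change of 0.31 (SE 0.23, adjusted p = 0.298) in the same fit. So 1 of the 2 members tested was called, where 49.4% of the 3953 expressed genes were called, 27.9% higher and 21.6% lower. Of the 12 macrophage markers 6 fell and 0 rose in this fit, with a median log2 change of -0.70, among them Itgam (-1.97, adjusted p = 0.00264), Csf1r (-1.69, adjusted p = 0.00509), Adgre1 (-1.64, adjusted p = 0.00299) and Ptprc (-0.94, adjusted p = 0.00872). The changes of Itgam, Csf1r and Adgre1 were thus of the size of that of Vegfa, and those of Ptprc, Cd68 (-1.01) and C1qc (-0.82) were smaller. Ptprc stood at 5.38 and 5.49 times background in the APC-KO tumors. It thus reached the limit for expressed genes only through APC-WT, where it is high. The same holds for Mertk (4.10 and 5.89 times), which was not called. Among the markers not called, Fcgr1 alone had a positive change (0.48). On scaled CPM, Lyz2, C1qa and C1qb read higher in both APC-KO tumors, and Adgre1, Csf1r, Itgam, Ptprc, Cd68, Cd14 and Mertk read lower. The part of the macrophage markers in the Vegfa result was not tested. Without APC-KO tumor 2, Vegfa lost its call at an unchanged direction (log2 change -1.40, adjusted p = 0.0527). Without the length offset Areg was called higher (log2 change 1.07, adjusted p = 0.0174), where 32.5% of the same genes were, and without APC-WT tumor 2 likewise (0.64, adjusted p = 0.0371).

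Areg carried opposite signs under other scalings. It was at -0.01 (adjusted p = 0.976) with a limit of 5 CPM for expressed genes and at -2.75 (adjusted p = 0.0917) with TMM over all genes. That scaling over all genes put the median expressed gene at -4.0, called 0 of the 53705 genes tested in edgeR (0%) and had 17844 of them at an unadjusted p under 0.05. Vegfa was lower under every scaling tried, with log2 changes between -6.02 with TMM over all genes and -1.29 with expected background subtracted.

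The other 6 members failed the limit for expressed genes. With the limit met in either genotype, a setting chosen after seeing the data that left 7912 genes, Hbegf, Pdgfa, Pdgfb and Hgf entered through APC-WT, and Ereg and Igf1 did not enter. Hbegf had a log2 change of 1.66 (SE 0.34, edgeR adjusted p = 0.012) and Pdgfa one of 1.26 (SE 0.21, adjusted p = 0.00673), both higher in APC-KO, although at -1.81 and -2.25 with TMM over all genes (adjusted p = 0.129 and 0.0946). Pdgfb, at 0.42 (SE 0.14, adjusted p = 0.0548), did not pass. Hgf was lower in APC-KO at -0.82 (SE 0.19, adjusted p = 0.017), but it entered only through the genotype in which it is high. With all genes fitted and the length offset kept, Hgf stood at -0.15 (adjusted p = 0.569). In that set of 7912 genes 4 of the 6 members tested were called, beside 60% of all genes, 30.7% higher and 29.4% lower. A call was thus the commoner outcome for any gene in that set.

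Subtracting the expected background gave a further view on the members near it, again chosen after seeing the data. Fitted over 37184 genes with the length offset, the log2 changes were -1.29 for Vegfa (adjusted p = 0.00576), 2.26 for Hbegf (0.00928), 0.25 for Areg (0.423), 1.45 for Pdgfa (0.00919), 0.87 for Pdgfb (0.0175) and -1.43 for Hgf (0.00744). Ereg came to 1.70 (adjusted p = 0.0353) and Igf1 to 4.68 (adjusted p = 0.00312), but what remains of both in APC-KO lies within the range of the receptor genes. In this fit 7 of the 8 members passed, beside 52.7% of all genes, with 5 members higher and 2 lower beside 48.2% and 4.57%, and the median of all genes was itself at 2.32. The change of Hbegf was within its SE (0.37) of that median, those of Pdgfa, Pdgfb and Ereg were smaller and that of Igf1 was larger, differences that were not tested, while the median expressed gene was at 0.03. With all genes scaled to the expressed genes and neither offset nor subtraction, 8 of the 8 members were called, beside 61.6% of all genes. In that fit, 31570 of the 53705 genes were called higher in APC-KO and 1498 lower. Over the libraries, 5 of the 8 members lay higher and 2 lower in APC-KO without overlap on the scaled CPM scale. Of the expressed genes, 27.6% lay higher and 30.2% lower in this way. Among these members only Areg and Vegfa belong to the expressed genes. Those shares are thus no reference for Hbegf, Ereg, Igf1, Pdgfa and Hgf, and overlap over all genes was not tested.

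**Figure D3:**
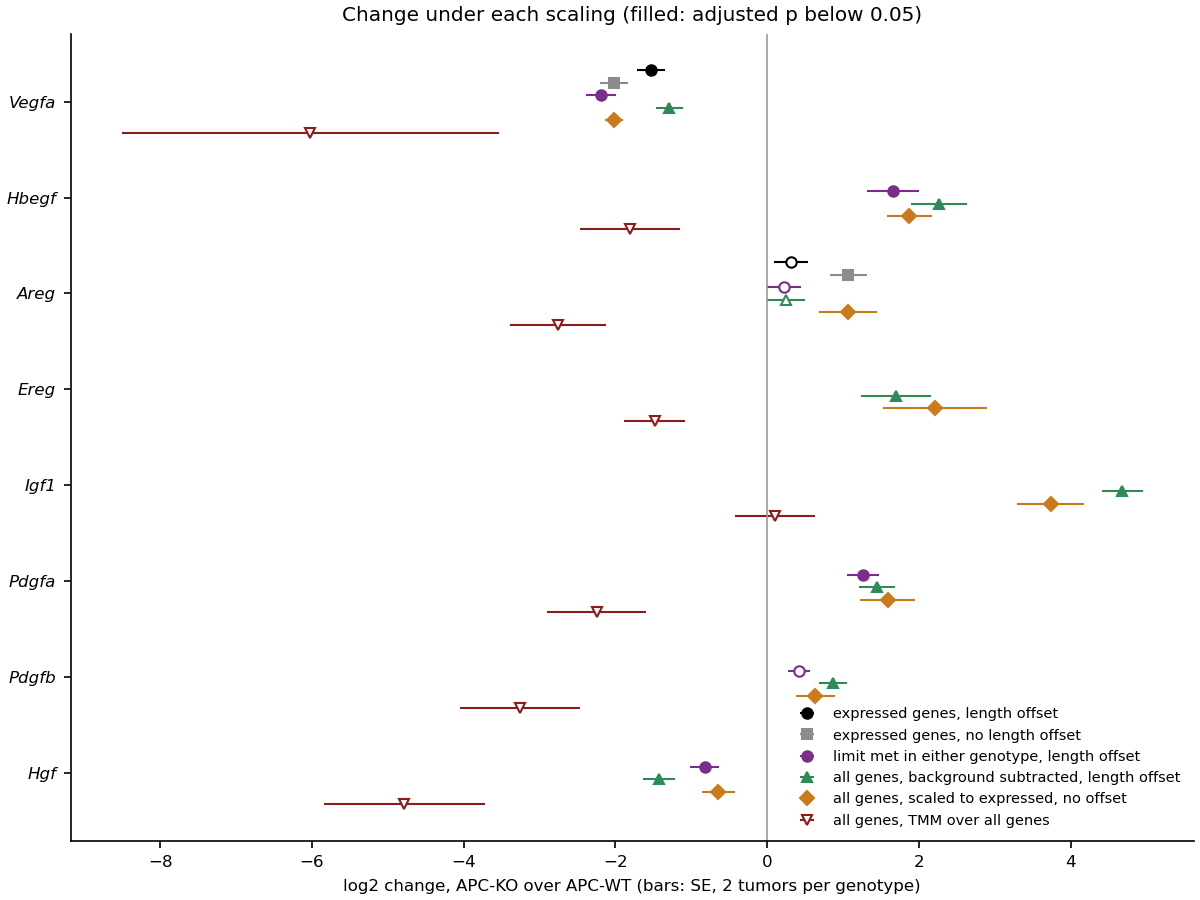
Log2 change between APC-KO and APC-WT (x axis, log2, positive for higher in APC-KO) of each growth factor (y axis) under 6 scalings and gene limits, with bars for the SE of 2 tumors per genotype and filled symbols for an adjusted p below 0.05. Vegfa stays left of 0 under all 6, from -6.02 to -1.29; Hbegf, Areg, Ereg, Pdgfa and Pdgfb lie right of 0 except with TMM over all genes.

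The tumors of a genotype were compared over their libraries. Between APC-KO tumors 1 and 2, 0 of the 2 members tested was called in edgeR, with 0 at an unadjusted p under 0.05 and 0 called by DESeq2 or limma-voom, beside 35.4% of the expressed genes. Vegfa differed by 0.20 (SE 0.12, adjusted p = 0.209) and Areg by 0.10 (SE 0.08, adjusted p = 0.353), as log2 of tumor 1 over tumor 2. Without replicate 1, the library that was low in APC-KO tumor 1, Vegfa was called higher in tumor 1 (0.37, adjusted p = 0.00136). Between APC-WT tumors 1 and 2 Areg was lower in tumor 1 (log2 change -0.61, SE 0.07, adjusted p = 1.5e-07) and Vegfa was not called (-0.06, adjusted p = 0.735), beside 48.1% of expressed genes called. In the set of 7912 genes, Hbegf (-1.01) and Pdgfa (-0.57) were lower and Hgf (0.47) was higher in APC-WT tumor 1 than in tumor 2, with adjusted p of 1.2e-10, 4.41e-06 and 7.68e-05 and 41.9% of genes called. Pdgfb, whose libraries split within each APC-WT tumor, was not called there (-0.26, adjusted p = 0.482).

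Each APC-KO tumor was also set against each APC-WT tumor, in 4 pairs that share tumors. Vegfa was called lower in all 4, at log2 changes of -1.47 and -1.53 for APC-KO tumor 1 against APC-WT tumors 1 and 2, and -1.67 and -1.73 for APC-KO tumor 2 against them. Areg was called higher against APC-WT tumor 1, at 0.65 for APC-KO tumor 1 and 0.55 for APC-KO tumor 2, but not against APC-WT tumor 2, at 0.04 and -0.06. With a limit of 5 CPM for expressed genes it was called in all 4 pairs in opposite directions, higher against APC-WT tumor 1 (0.29 and 0.17) and lower against APC-WT tumor 2 (-0.23 and -0.36) for APC-KO tumors 1 and 2. In these pairs, in the order given, 82.5%, 80.6%, 81.5% and 80.5% of the expressed genes were called. With the limit met in either genotype, Hbegf was called higher in all 4 pairs, from 1.19 to 2.26, Pdgfa likewise, from 0.97 to 1.56, and Hgf lower in all 4, from -1.09 to -0.56, although it is in this set only through the genotype in which it is high, while Pdgfb was called in none; 81.3%, 79%, 81.5% and 80% of the 7912 genes were called in these pairs. With all genes scaled to the expressed genes, 7 of the 8 members were called in all 4 pairs, beside 97.2%, 96.3%, 97.3% and 96.6% of genes, and 6 between the APC-WT tumors, beside 84.2%. The difference of Hbegf and Pdgfa was larger against APC-WT tumor 1, the tumor with the lower background, than against APC-WT tumor 2; the part of that background in the result was not tested.

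Relative abundance within a library needs no scaling between tumors. Hbegf counts were at a median of 13.3% and 18.8% of Vegfa counts in the APC-KO tumors, against 0.723% and 1.48% in the APC-WT tumors. Areg counts were at 6.08% and 6.37% in the APC-KO tumors and 0.582% and 0.904% in the APC-WT tumors, and Hgf counts at 6.03% and 6.64% against 3.01% and 2.08%. All 7 members had higher shares in every APC-KO library than in any APC-WT library. The same held for 89% of the other 3952 expressed genes, so Areg shared in this what most expressed genes did. The other members are not among the expressed genes, and that share is no reference for them. Ereg, Igf1 and Hgf lay within the receptor-gene range in both APC-KO tumors, so their counts there include background. The part of background in their higher shares was not tested. These percentages compare libraries for 1 gene, since they are not corrected for length.

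**Figure D4:**
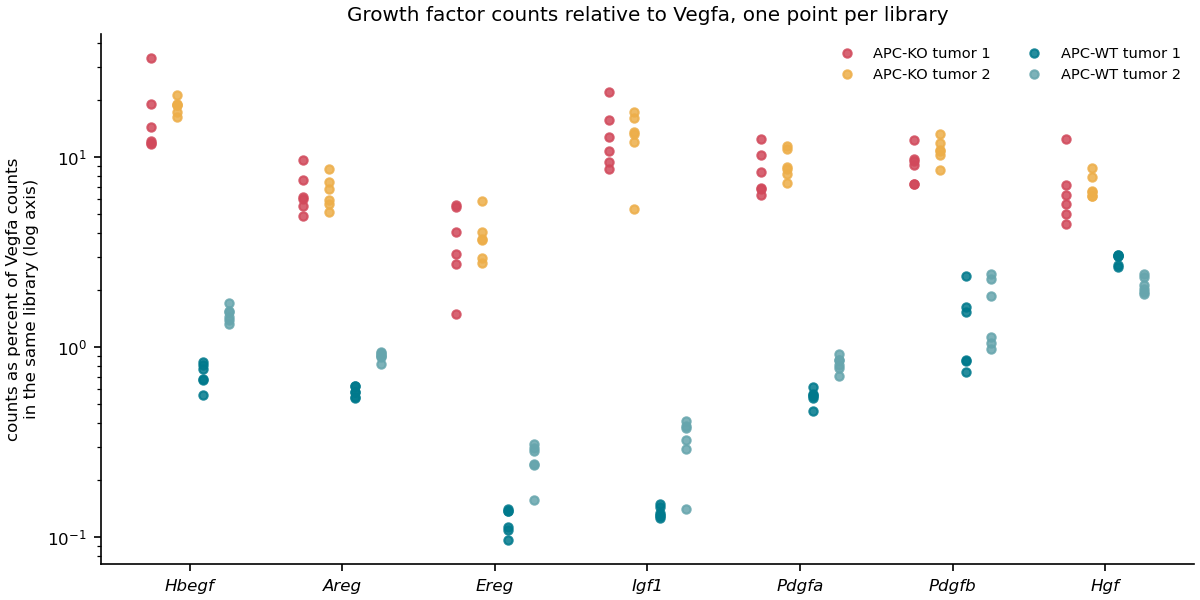
Counts of 7 growth factors as percent of the Vegfa counts in the same library (y axis, percent, log axis), with 1 point per library of APC-KO tumors 1 and 2 and APC-WT tumors 1 and 2 (x axis, by gene). The APC-KO points lie above the APC-WT points for each gene, closest for Hgf (lowest APC-KO library 4.45%, highest APC-WT library 3.05%). Background was not subtracted, and Ereg, Igf1 and Hgf in APC-KO lie within the range of the receptor genes.

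The genes that receive, release and restrain these factors were followed as lists. The receptor list had 2 of 18 genes expressed and 0 called in edgeR, beside 49.4% of all expressed genes. With the limit met in either genotype, 4 were tested and 0 called, beside 60% of all genes in that set. Nrp1, a coreceptor of Vegfa, read 93.9 and 121 scaled CPM in the APC-KO tumors and 172 and 109 in the APC-WT tumors (log2 change 0.15, adjusted p = 0.662). Kdr, Flt1, Egfr, Erbb4, Pdgfra and Pdgfrb were within the receptor-gene range in both APC-KO tumors. Igf1r was above that range in both, and Met in APC-KO tumor 1 only. Kdr read 30.1 and 30.5 scaled CPM in the APC-KO tumors and 10.2 and 7.18 in the APC-WT tumors. Kdr stood at 1.31 and 1.28 times background in APC-KO and 22.6 and 2.18 times in APC-WT. Flt1 stood at 2.26 and 2.18 times background in APC-KO and 7.61 and 2.58 times in APC-WT, and Egfr at 0.971 and 1.01 against 5.39 and 1.56 times. Erbb4 was within the receptor-gene range in all 4 tumors (0.764 and 0.759 times background in APC-KO, 0.706 and 1.34 times in APC-WT). Pdgfra stood at 1.93 and 1.92 times background in the APC-KO tumors and 31.9 and 3.07 times in the APC-WT tumors, and Pdgfrb at 1.24 and 1.39 against 49.9 and 4.02 times. Met reached 2.67 and 1.72 times background in APC-KO and 56.6 and 15.2 times in APC-WT, at levels of 52.4 and 34.7 scaled CPM in the APC-KO tumors and 21.8 and 42.5 in the APC-WT tumors. Igf1r was above the receptor-gene range in all 4 tumors, at 3.35 and 3.10 times background in APC-KO and 13.5 and 3.29 times in APC-WT.

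The release and activation list held the proteases that shed or process the precursors, with their regulators and inhibitors. Of its 18 genes 9 were expressed, and 5 of these fell in APC-KO and 0 rose, with a median log2 change of -0.97 beside 0.05 over all expressed genes, of which 21.6% fell. With the limit met in either genotype, 10 were tested and 8 fell, beside 29.4% of all genes in that set. Adam17, Adam10, Adam9 and Mmp9, among the 5, stood at 2.86 to 5.74 times background in the APC-KO tumors, under the limit of 10. They, and Rhbdf2 among the 8 (5.64 and 3.94 times), thus entered only through APC-WT, the genotype in which they are high. With all genes scaled to the expressed genes, 8 of the 18 were higher and 9 lower, with a median of 0.46 beside 3.56 over all genes, of which 61.6% were called in either direction. Adam17, which releases the Egfr ligands, read 105 and 93.9 scaled CPM in the APC-KO tumors and 308 and 297 in the APC-WT tumors (log2 change -0.97, SE 0.13, edgeR adjusted p = 0.00578). Adam10 (-1.53, adjusted p = 0.00511) and Adam9 (-1.82, adjusted p = 0.00227), metalloproteases of the same family, fell as well. Spint1, a membrane inhibitor of the protease that activates Hgf, fell by 1.04 (adjusted p = 0.011), so the list holds members of opposed function. The fifth, Mmp9, a matrix protease that can release matrix-bound Vegfa, was named after its values were seen (-1.11, adjusted p = 0.043). The 16 related ligands of the same families, such as Vegfb and Tgfa, had 0 genes expressed by the limit.

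Of the 12 binding proteins and inhibitors 4 were expressed and 1 fell, with a median of 0.32, beside 21.6% and 0.05 over all expressed genes. With the limit met in either genotype 4 were tested and 1 fell, with a median of -0.35, beside 29.4% and 0.03 over all genes there. That gene, Thbs1, an inhibitor of angiogenesis that also activates latent TGF-beta, read 810 and 360 scaled CPM in the APC-KO tumors and 5043 and 6889 in the APC-WT tumors (log2 change -2.73, SE 0.49, edgeR adjusted p = 0.0116). Vegfa and this counteracting factor were thus both lower in APC-KO. The hypoxia response list had 11 of its 18 matched genes expressed, of which 1 rose and 1 fell, with a median of -0.02. Over all expressed genes 27.9% rose and 21.6% fell, at a median of 0.05. With the limit met in either genotype, 12 genes of the list were tested, 1 rose and 3 fell (Hif1a, Arnt and P4ha1). The median of the 12 was -0.59, where 30.7% of all genes rose and 29.4% fell at a median of 0.03. The 3 that fell entered this set only through APC-WT, where they are high. In the APC-KO tumors Arnt stood at 1.98 and 1.65 times background, within the receptor-gene range, and P4ha1 at 11.1 and 7.90 times. Hif1a, the oxygen-regulated subunit of the factor that drives Vegfa, read 131 and 83.2 scaled CPM in the APC-KO tumors and 514 and 692 in the APC-WT tumors (log2 change -1.84, SE 0.31, adjusted p = 0.00965). At 8.72 and 5.37 times background in APC-KO, Hif1a reached the limit for expressed genes only through APC-WT, where it is high. Higd1a, a mitochondrial protein induced by hypoxia, was higher at 69.3 and 51.3 scaled CPM in the APC-KO tumors, against 16.6 and 22.3 in the APC-WT tumors (log2 change 1.78, SE 0.23, adjusted p = 0.00533), though at -2.23 with TMM over all genes (adjusted p = 0.119). The remaining 9 expressed hypoxia genes, among them the glycolytic genes Pgk1 (0.11) and Ldha (-0.02), were not called in the fit of expressed genes.

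**Figure D5:**
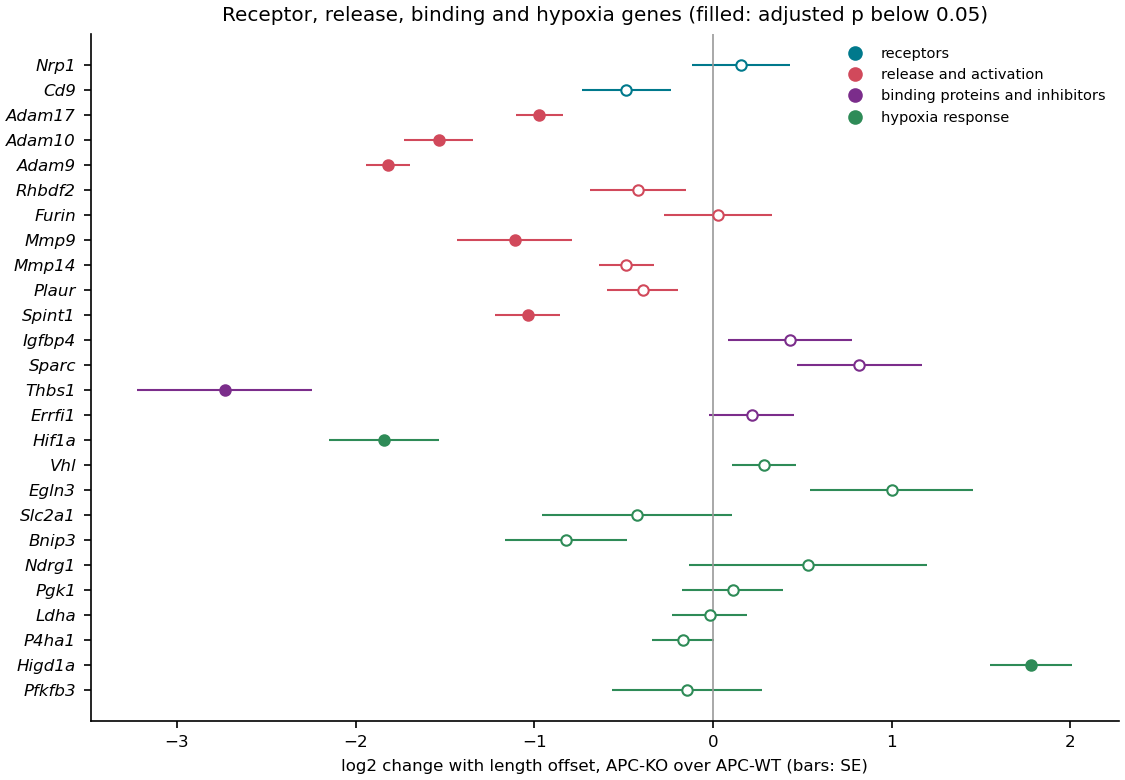
Log2 change with the length offset between APC-KO and APC-WT (x axis, log2, positive for higher in APC-KO) of the expressed receptor, release, binding and hypoxia genes (y axis), with bars for the SE and filled symbols for an adjusted p below 0.05. The filled points left of 0 are Adam17, Adam10, Adam9, Mmp9, Spint1, Thbs1 and Hif1a, and the 1 filled point right of 0 is Higd1a, which changed sign with TMM over all genes.

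Across the 4 tumors, the expressed coding genes nearest to Vegfa by the distance of centred log2 scaled CPM were Il13ra1 (0.13), Xdh (0.13) and Ctsc (0.16), out of 3777 genes compared. Ctsc, the lysosomal protease cathepsin C, read 1547 and 1285 scaled CPM in the APC-KO tumors and 5150 and 5365 in the APC-WT tumors. Nearest to Areg were Capg (0.05), Cdkn2d (0.08) and Hook2 (0.10). Capg, an actin-capping protein of macrophages, read 685 and 632 scaled CPM in the APC-KO tumors and 240 and 399 in the APC-WT tumors.

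Several of these factors are also made by other cells, so markers of such cells were read beside them; fewer cells of a type and less RNA per cell cannot be told apart in these sorted populations. Epithelial markers, which tumor cells would add, summed to 249 and 296 scaled CPM in the APC-KO tumors and 143 and 486 in the APC-WT tumors, highest for Krt8 at 47.8 and 60.7 in APC-KO and lowest there for Krt20 (11.97) in tumor 1 and Vil1 (14.4) in tumor 2. Of these 10 markers 9 were above the receptor-gene range in each APC-KO tumor and 10 in each APC-WT tumor. Fibroblast markers, beside which Hgf is of interest, summed to 326 and 444 scaled CPM in the APC-KO tumors and 1107 and 657 in the APC-WT tumors. This lower sum in APC-KO was led by Col3a1 at 56.5 and 102 against 665 and 347, with Lum the lowest in APC-KO at 5.197 and 5.88. Col1a1, Dcn and Lum also read lower in APC-KO, but Col1a2, Col6a3, Pdgfra, Pdgfrb, Fap and Postn read higher in both APC-KO tumors. With all genes scaled to the expressed genes, 5 of the 10 were called higher and 4 lower, beside 61.6% of all genes called. Of 10 fibroblast markers 1 and 3 were above the receptor-gene range in the APC-KO tumors and 8 in each APC-WT tumor. Platelet markers, beside which the Pdgf chains are of interest, summed to 443 and 309 scaled CPM in the APC-KO tumors and 142 and 72.8 in the APC-WT tumors, led by Pf4 at 297 and 180 against 104 and 43.5, with Treml1 the lowest in APC-KO at 4.26 and 4.85. In the fit with the length offset the 2 platelet markers tested were not called, Pf4 at 0.03 (adjusted p = 0.966) and Ppbp, whose level was 29.8 and 6.90 against 34.97 and 16.8, at -1.40 (adjusted p = 0.189). Endothelial markers summed to 263 and 260 in the APC-KO tumors, 1.71 and 1.65 times their background, and 94.9 and 154 in the APC-WT tumors. In APC-KO tumor 1 they ran from Esam (11.05) to Pecam1 (57.1) and in APC-KO tumor 2 from Cldn5 (8.46) to Vwf (58.7).

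Neutrophil markers summed to 349 and 189 scaled CPM in the APC-KO tumors and 213 and 397 in the APC-WT tumors, with S100a9 (121) the highest in APC-KO tumor 1, Csf3r (57.7) in APC-KO tumor 2 and Ly6g the lowest in both (3.38 and 2.84). Mast cell and basophil markers, which include sources of Areg, summed to 236 and 208 in the APC-KO tumors and 56.4 and 224 in the APC-WT tumors, with Hdc the highest at 108 and 68.9 in APC-KO against 47.9 and 201, and Cma1 the lowest in APC-KO at 0.487 and 1.26. T and NK cell markers summed to 87.2 and 183 in the APC-KO tumors and 17.03 and 31.5 in the APC-WT tumors, from Trbc2 (2.62) to Cd3g (16.8) in APC-KO tumor 1 and from Ncr1 (4.83) to Nkg7 (38.8) in APC-KO tumor 2. No marker of these lists was at 0 in any tumor, and in APC-KO part of each sum is background. Areg in APC-WT tumor 2 exceeded APC-WT tumor 1, as did the mast cell and basophil, neutrophil, epithelial, endothelial and T and NK cell sums. The macrophage, fibroblast and platelet sums were lower in APC-WT tumor 2. Of the mast cell and basophil sums of 56.4 and 224 there, Hdc alone made up 47.9 and 201. Whether these cells took part in any result above was not tested.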

How the data were processed

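The deposited table holds whole-number counts by library (24) and gene ID (55487). The tools named are HISAT2, StringTie and bcl2fastq 2.20.0 and the build named is mm9, per the submitters' processing notes; settings, strand and annotation are not given in the sources used here. Symbols, exon lengths and positions come from GENCODE M21 (GRCm38) by gene ID, of which 55227 matched, so coordinates are not those of the authors' build.

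From the counts, expressed genes (at least 10 CPM on average and 10 times expected background, 3953 genes) set the library sizes by TMM. For the genotype, library counts were summed per tumor and tested by edgeR 4.0.16 (quasi-likelihood, Benjamini-Hochberg adjustment, 0.05) with an offset for transcript length, a loess fit with span 0.5 on log2 levels at a prior count of 2. Tumors were compared over the 24 libraries with a mean per tumor. All fits ran over all genes named, in R 4.3.3 with limma 3.58.1 and DESeq2 1.42.0 as alternatives, and in Python 3.11.15. The SE is the log2 change over the square root of F.

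On simulated counts of 3953 genes, of which 200 were changed, the test on tumor sums of APC-KO against APC-WT was run again. It found 59% of genes changed by 1 on the log2 scale, 100% of those changed by 2, and 12 others falsely. The simulated counts held no difference in background between genotypes and far fewer changed genes than were called in the data. They therefore do not give the rate of false calls in the real comparison. Libraries of a tumor differed beyond sampling noise, with a chi-square per degree of freedom of at least 6.95, so none was counted as a duplicate.

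All 8 members were named, from each gene list up to 4 called genes with the smallest p, 9 receptors with Adam17 and Hif1a always, from each marker list the highest and lowest in APC-KO, and for expressed members the 3 genes nearest in pattern. The members, lists and tests were chosen with earlier results of these data known.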

Additional observations from a re-analysis of the deposited data

Results flagged for a closer look

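In groups of 6 libraries, 3 values lay apart from the rest of their tumor by the gap between the extreme library and its nearest neighbour relative to the range. Chance flags about 1 in 20 groups, and 32 groups were checked. Hbegf stood at 82.3 scaled CPM in library 1 of APC-KO tumor 1 (444 counts), where the other libraries had 61.2 to 66.7. Pdgfb stood at 31.4 scaled CPM in library 3 of APC-KO tumor 2 (254 counts), beside 42.9 to 46.7 in the others. Pdgfa stood at 8.19 scaled CPM (714 counts) in library 4 of APC-WT tumor 1, beside 9.51 to 10.2 in the others. Library 1 of APC-KO tumor 1, high for Hbegf, was also the lowest of that tumor for Vegfa, at 246.8 scaled CPM.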

How the results depend on the processing

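The count of genes called between APC-KO and APC-WT was 1953, and 0 with TMM over all genes, 33068 with all genes scaled to the expressed genes, 31922 with no filter, 4038 with a limit of 5 CPM and 4749 with the limit met in either genotype; leaving out 1 tumor at a time gave 455 to 1980 (514 without APC-KO tumor 1, 455 without APC-KO tumor 2). Members called numbered 1, and 2 without the length offset, 0 with TMM over all genes, 8 with all genes scaled, 7 with no filter, 5 with a limit of 5 CPM, 4 with the limit met in either genotype, 6 with all genes and the offset, 7 with background subtracted, and 0 to 2 with 1 tumor left out. Of all genes, 2503 of 3953 were called without the length offset, 33068 of 53705 with all genes scaled and 31922 of 55060 with no filter. The limit of 5 CPM tested 6 members and called 4038 of 7010 genes. The limit met in either genotype tested 6 members and called 4749 of 7912 genes. With all genes and the offset 21084 of 53705 genes were called, and 19610 of 37184 with background subtracted. Between APC-KO tumors the count of members called was 0, and 0 to 1 with 1 replicate left out. Between APC-WT tumors it was 1, and 6 with all genes scaled, 4 with a limit of 5 CPM and 4 with the limit met in either genotype. In the last 3 of these settings 38276 of 45451, 3107 of 7010 and 3312 of 7912 genes were called. Members called in all 4 pairs numbered 1, and 2 without the offset, 7 with all genes scaled, 5 with a limit of 5 CPM (Areg among them, lower in 2 of the pairs) and 4 with the limit met in either genotype. With a limit of 5 CPM, 5578 to 5708 of the 7010 genes were called in a pair. Signs reversed with TMM over all genes for Hbegf (-1.81), Areg (-2.75), Ereg (-1.48), Pdgfa (-2.25) and Pdgfb (-3.26), and with a limit of 5 CPM for Areg (-0.0084). DESeq2, limma-voom and leaving out satellite-like loci kept 1 member called, Vegfa. At most 272 counts per library lay behind Areg and 190 behind Ereg in APC-KO, which limits their precision.

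Same-numbered libraries of different tumors had correlated deviations, over 0.1, in 8 of 36 pairs (-0.46 to 0.72), 4 of them among the 6 pairs between the APC-WT tumors; since not every pair did, the numbers were not taken as a pairing. With the replicate number as a block, members called stayed at 0 between APC-KO tumors, 1 between APC-WT tumors and 1 in all 4 pairs, and the replicate block changed no other call of a member. The genotype fit on tumor sums holds no replicate numbers, so no block could enter it. The causes of these shifts were not tested.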
